A study of Mus musculus with 4 samples.

Results

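DNA replication was examined through a list of 40 mouse genes that cover origin licensing, the replicative helicase, origin firing, the polymerases and primase, the sliding clamp and its loader, the lagging strand and new chromatin, and the cyclin E and E2F control of S phase entry. Probe sets, the groups of short probes that each report on 1 transcript, belonged to the list when their single platform symbol was one of these genes. This gave 66 of the 22690 probe sets and 38 of the 40 genes. Gins2 and Chaf1a were not analysed here. For each of the 38 genes at least 1 probe set passed the filter on dim signals, and in all 62 of the 66 probe sets were tested. The 4 untested probe sets were further, dim probe sets of Cdt1, Mcm10, Dbf4 and Pola2.

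The samples were 2 NFATc1-deficient cultures (NFATc1 fl/fl MxCre+, with excision induced by polyIC) and 2 wild-type cultures (NFATc1 fl/fl MxCre-), all on the C57BL/6 strain and all after 3 days in M-CSF and RANKL. Both groups carried the floxed alleles, and the sources used here do not say whether wild-type mice also received polyIC. The Mx promoter answers to interferon in many cell types and is not specific to osteoclast precursors. Each array held 1 pool, of 3 mice in replicate 1 and of 4 mice in replicate 2 of both genotypes, and the plated cells, 20000 per well, were bone marrow precursors sorted as CD11b-, CD3e-, B220-, c-Kit+ and c-Fms+. No ages of the mice are given in these sources.

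Replication starts when the origin recognition complex, Cdc6 and Cdt1 load a ring of 6 MCM proteins on DNA in G1, a step that geminin blocks later in the cycle. The kinase Cdc7 with its partner Dbf4, together with Cdc45 and the GINS complex, turns this ring into an active helicase, and the polymerases then copy the strands while PCNA holds them on the template. Most of these genes are transcribed at the start of S phase under E2F factors, and osteoclast precursors stop dividing as they differentiate under RANKL.

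The deficient cultures had lower Nfatc1 signal, but the signal was not lost. The brighter Nfatc1 probe set had signals of 3018.2 and 4097.9 on the NFATc1-deficient arrays, against 5433.6 and 6146.7 on the wild-type arrays, a log2 change of -0.71 (SE 0.15, adjusted p = 0.0104). That call was lost without NFATc1-deficient replicate 1 (adjusted p = 0.0886) and without the intensity trend (adjusted p = 0.0613). The dimmer Nfatc1 probe set had 1718 and 2078.6 on the NFATc1-deficient arrays, against 2680.7 and 2860.4 on the wild-type arrays. It too was lower in limma, with a change of -0.55 (adjusted p = 0.0129). Where the probes lie relative to the excised exons was not analysed here. As a check of the osteoclast label, the markers Acp5, Ctsk, Mmp9 and Ocstamp had no signal below 1397.3 on any of the 4 arrays. The other markers measured, Itgb3, Calcr and Oscar, were low in the deficient cultures. Itgb3 had 4.6 and 10.2 on the NFATc1-deficient arrays, against 610.6 and 495.1 on the wild-type arrays. In the same order, Calcr had 17 and 41.6 against 761.2 and 717.5, and Oscar had 28.9 and 118.4 against 1893.6 and 1571.8. All 7 osteoclast markers measured were lower in the deficient cultures, with summed signals of 19085 and 26175 on the NFATc1-deficient arrays, against 43638 and 49299 on the wild-type arrays. Median signals of the 4 arrays ran from 112 to 130.

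The replication genes were higher in the NFATc1-deficient cultures almost throughout. Of the 38 genes, 30 rose, 1 fell and 7 did not pass. Over all 7798 genes tested, 12.9% rose and 11.9% fell. The test was limma's moderated test on log2(signal + 23.3), with the constant added to every signal, NFATc1-deficient minus wild-type, with p-values adjusted by the Benjamini-Hochberg method over all tested probe sets and a threshold of 0.05. The median log2 change was 0.88 over the replication genes and 0.03 over all tested genes. The quartiles of the list were 0.65 and 1.09, against -0.26 and 0.30 over all tested genes.

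Both NFATc1-deficient signals lay above both wild-type signals for 36 of the 38 genes, a pattern that 34.3% of all tested genes showed. The mean signal was at least 2 times the wild-type mean for 15 of the 38, against 3.09% of all tested genes. With 2 arrays against 2, an exact two-sided permutation test of a single gene cannot give a p below 0.333, so calls of single genes rest on the spread shared across all probe sets. The count that rose was 24 without NFATc1-deficient replicate 1 and between 26 and 32 under the other settings tried, and 23 genes rose under each setting in which they were tested. In whole cultures, more cells in S phase and more RNA per cell cannot be told apart.

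**Figure D1:**
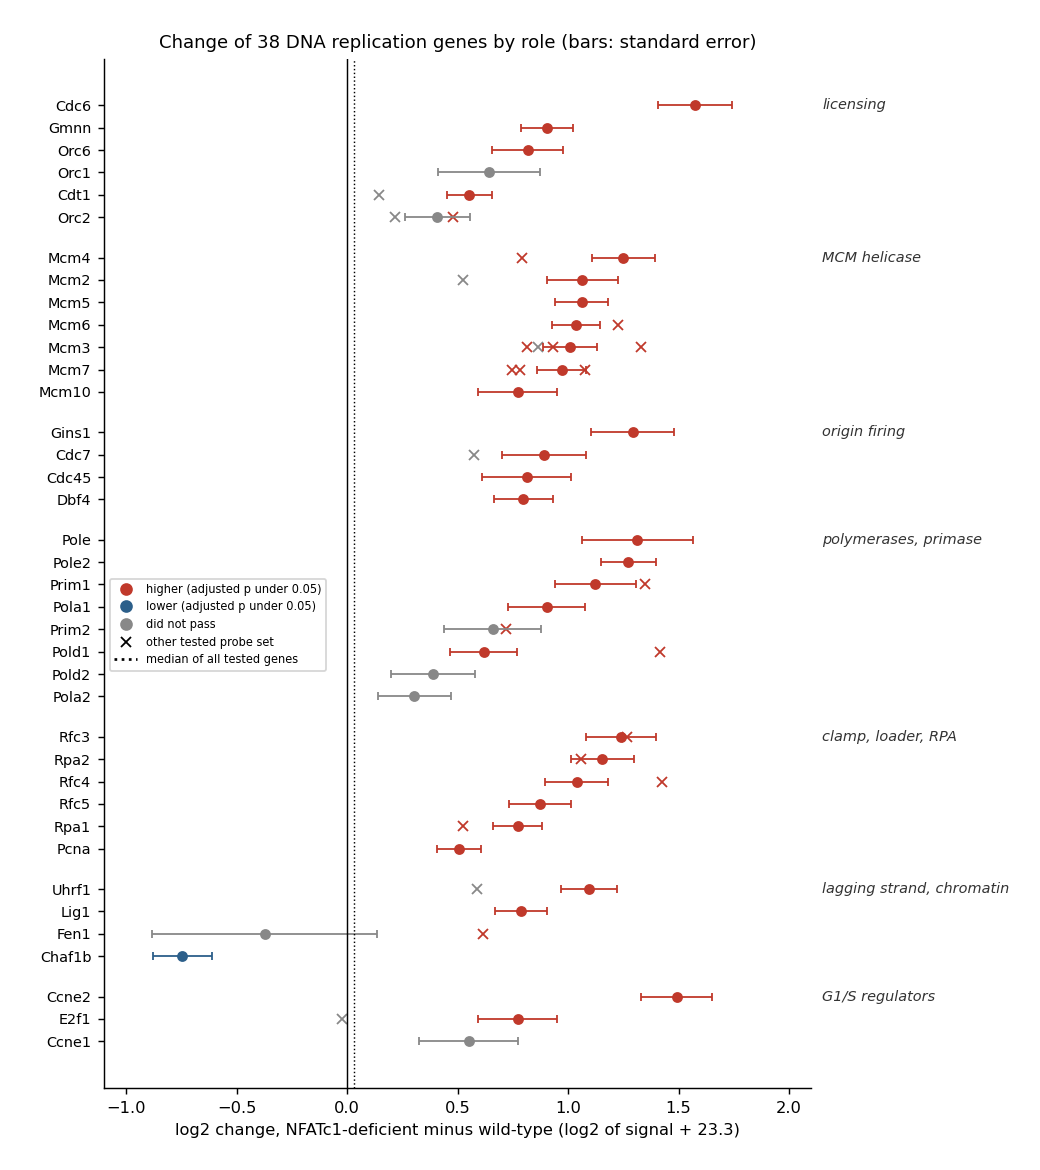
Log2 change (NFATc1-deficient minus wild-type, log2 of signal + 23.3) of the 38 replication genes on the horizontal axis, grouped by role, with points for the brightest tested probe set, bars for its standard error and crosses for other tested probe sets. Of the 38 points, 30 are red (higher) and only Chaf1b is blue (lower), and the dotted line marks the median of all tested genes at 0.03.

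Licensing factors were higher, with Cdc6 at 1.57 and Ccne2, described further on, at 1.49 within a standard error of each other as the 2 highest of the whole list at the brightest probe sets. Without wild-type replicate 1 Ccne2 (1.64) was above Cdc6 (1.54), and without wild-type replicate 2 Pole (1.64) was above it. Of 6 licensing genes 4 rose and 2 did not pass. Cdc6, the loader that joins the origin complex to recruit MCM proteins, had signals of 891.2 and 671.5 on the NFATc1-deficient arrays, against 238.6 and 250.6 on the wild-type arrays. Its mean was 781 ± 155 in deficient and 245 ± 8.49 in wild-type cultures (SD, n = 2 each), a log2 change of 1.57 (SE 0.17, adjusted p = 0.000578). Gmnn, which encodes geminin, the inhibitor of Cdt1, had signals of 3219.3 and 2689.5 on the NFATc1-deficient arrays, against 1548 and 1574.3 on the wild-type arrays, a log2 change of 0.90 (SE 0.12, adjusted p = 0.00131). Loader and brake thus both stood clear of the wild-type range. Cdt1 itself rose by 0.55 on the log2 scale (adjusted p = 0.00558), with 4926.1 and 4642.4 on the NFATc1-deficient arrays against 3194.4 and 3308.9 on the wild-type arrays, while a dimmer Cdt1 probe set changed by 0.14 and did not pass. The Cdt1 call was lost with median scaling and without NFATc1-deficient replicate 1, and its adjusted p ran between 0.00123 and 0.0624 over the alternatives.

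Of the 3 origin recognition subunits on the list 1 passed. Orc6, a small subunit, rose by 0.82 (adjusted p = 0.00760), with 818.4 and 618.7 on the NFATc1-deficient arrays, against 396.4 and 391.5 on the wild-type arrays. Orc1, the large ATPase subunit, had 150.2 and 201.4 on the NFATc1-deficient arrays, against 104.5 and 101.8 on the wild-type arrays, a change of 0.64 that did not pass (adjusted p = 0.0761, and between 0.0391 and 0.376 over the alternatives). Orc2 had 746 and 740.2 on the NFATc1-deficient arrays, against 488.2 and 628.1 on the wild-type arrays, the smallest change of the group at 0.41 (SE 0.15, adjusted p = 0.0798, and between 0.0227 and 0.371 over the alternatives). Its change was 0.23 without wild-type replicate 1 and 0.58 without wild-type replicate 2. One of its 2 other probe sets, at 0.48, did pass. For all 3 subunits the deficient signals were above the wild-type signals on every array, although only Orc6 passed at its brightest probe set.

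The MCM genes rose together. All 7 rose, with changes between 0.77 and 1.25 and a median of 1.04. Mcm2 to Mcm7 encode the 6 subunits of the helicase ring, and Mcm10 a separate factor that helps to activate it. Mcm4 had signals of 3418.2 and 2643.4 on the NFATc1-deficient arrays, against 1342.6 and 1165.7 on the wild-type arrays, with a mean of 3031 ± 548 in deficient and 1254 ± 125 in wild-type cultures and a log2 change of 1.25 (SE 0.14, adjusted p = 0.000748). That probe set is also of the x_at kind, whose probes may bind other transcripts, and the other Mcm4 probe set rose by 0.79 (adjusted p = 0.00155). Mcm2 had 1266.6 and 1125.9 on the NFATc1-deficient arrays, against 653.8 and 477.2 on the wild-type arrays, a change of 1.06 (SE 0.16, adjusted p = 0.00246). Mcm10, with the smallest change of the group, had 578.1 and 639.5 on the NFATc1-deficient arrays, against 411.4 and 291 on the wild-type arrays (0.77, SE 0.18, adjusted p = 0.0154). In each of these the lowest deficient signal was above the highest wild-type signal.

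The remaining ring subunits changed by similar amounts. Mcm5 changed by 1.06, Mcm6 by 1.04, Mcm3 by 1.01 and Mcm7 by 0.97. Mcm3, Mcm6 and Mcm7 had several probe sets, whereas Mcm5 had a single one. All 4 Mcm7 probe sets rose, between 0.75 and 1.08, and 4 of the 5 Mcm3 probe sets did, between 0.81 and 1.33. The upper values, 1.08 for Mcm7 and 1.33 for Mcm3, came from probe sets of the x_at kind. The dimmer Pold1 probe set, given further on, is of that kind too. The fifth Mcm3 probe set had the dimmest signals of the gene and changed by 0.87 without passing, and a second Mcm2 probe set changed by 0.53 (adjusted p = 0.0741). The Mcm10 call was lost without NFATc1-deficient replicate 2 and without the intensity trend, with an adjusted p between 0.000478 and 0.0578 over the alternatives.

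**Figure D2:**
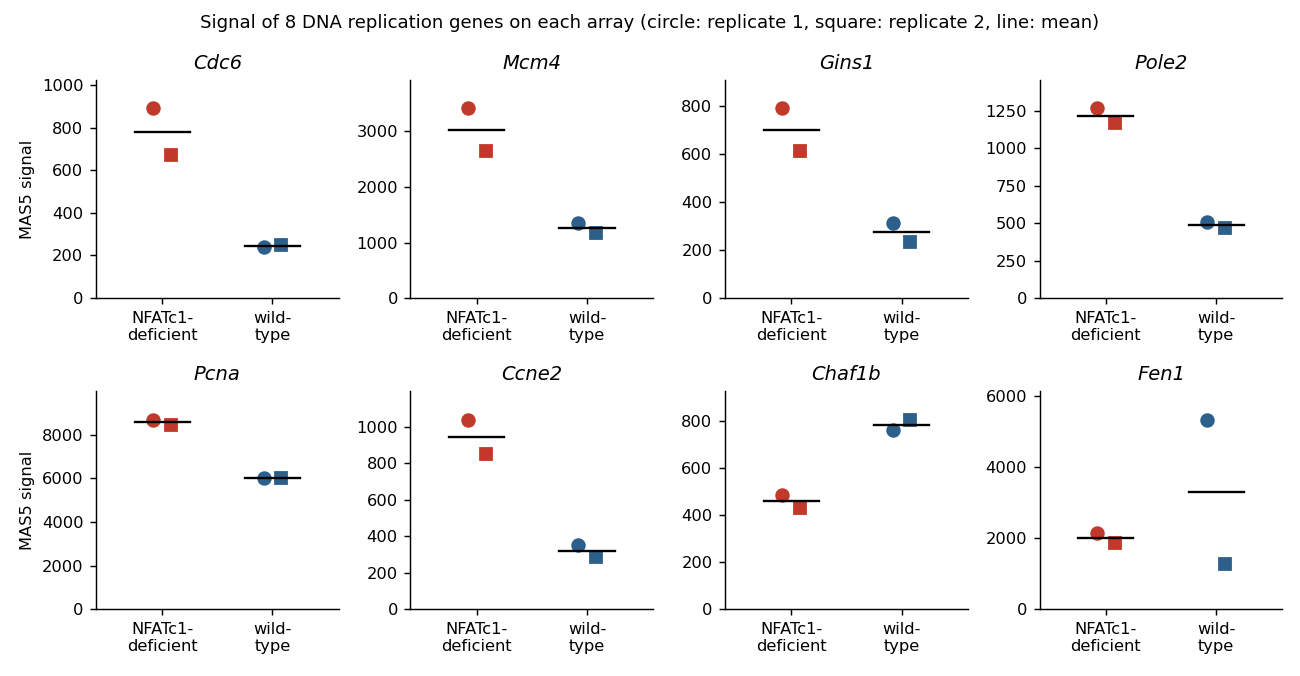
MAS5 signal (vertical axis, from 0, with its own scale in each panel) of 8 replication genes in NFATc1-deficient cultures (red, left) and wild-type cultures (blue, right), with a circle for replicate 1, a square for replicate 2 and a line for the mean. Both deficient signals lie above both wild-type signals in 6 panels, Chaf1b is the reverse, and Fen1 has 1 wild-type signal of 5347.8 far above the other at 1265.5.

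All 7 promoters found for MCM genes are shown, as a group in which every member rose. Beside them stand those of Cdc6, Pole2 and Rfc3, chosen because they hold a match to the letters that E2F factors are known to bind. Every measured gene also rose in the origin firing group and in the clamp, loader and RPA group, most of whose promoters are not shown. RefSeq promoters of build GRCm38.p6, 250 bases before to 50 bases after the annotated start, were matched by symbol for 32 of the 38 genes, with 40 promoters in all. The letters searched were TTTGGCGC, TTTCGCGC, TTTCCCGC and TTTGCCGC on either strand, and matches may overlap. They were present in promoters of 13 of the 32 genes, and in 13 of 40 promoters (32.5%). They were found in 2.26% of all 32851 RefSeq promoters, and in 4.04% of the 8277 promoters of other tested genes. By role they were found for 4 of 6 MCM genes, 3 of 5 licensing genes, 3 of 6 polymerase and primase genes, 2 of 4 lagging strand and chromatin genes and 1 of 6 clamp, loader and RPA genes. None of the 3 origin firing genes with a promoter held these letters in this window. No promoter was matched for Gmnn, Mcm4, Gins1, Prim2, Pole and Ccne2, so these were not searched. Ccne1 and E2f1 held none in the 1 window searched for each, and other starts of these genes were not searched. Whether the E2f1 window lies upstream of the gene's coding sequence was not analysed. Below, capitals mark the E2F letters, each sequence runs 5′ to 3′ on the gene's strand, and Chaf1b, the member that fell, is given for comparison. Mcm2, Mcm10, the first of the Mcm7 promoters and Chaf1b hold no match, as do the promoters of 13 of the 25 genes that rose.
Cdc6, chr11:98907901-98908200, plus strand: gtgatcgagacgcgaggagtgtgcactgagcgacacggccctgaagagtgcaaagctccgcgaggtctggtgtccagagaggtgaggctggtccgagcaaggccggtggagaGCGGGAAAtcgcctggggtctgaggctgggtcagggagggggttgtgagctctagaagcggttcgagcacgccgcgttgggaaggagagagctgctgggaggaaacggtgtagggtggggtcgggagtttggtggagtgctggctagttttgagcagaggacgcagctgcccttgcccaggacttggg
Mcm2, chr6:88898731-88899030, minus strand: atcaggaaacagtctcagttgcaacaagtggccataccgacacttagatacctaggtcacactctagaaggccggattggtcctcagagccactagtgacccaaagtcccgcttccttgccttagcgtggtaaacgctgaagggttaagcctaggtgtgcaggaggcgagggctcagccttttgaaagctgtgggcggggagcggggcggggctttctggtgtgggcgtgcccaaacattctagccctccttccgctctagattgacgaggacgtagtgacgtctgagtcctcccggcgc
Mcm3, chr1:20820263-20820562, minus strand: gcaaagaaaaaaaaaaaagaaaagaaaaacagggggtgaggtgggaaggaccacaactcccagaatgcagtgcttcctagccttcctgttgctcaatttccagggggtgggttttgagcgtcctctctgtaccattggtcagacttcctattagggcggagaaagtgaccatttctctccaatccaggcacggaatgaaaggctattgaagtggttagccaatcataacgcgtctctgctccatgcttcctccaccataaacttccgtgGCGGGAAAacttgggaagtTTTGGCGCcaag
Mcm5, chr8:75109259-75109558, plus strand: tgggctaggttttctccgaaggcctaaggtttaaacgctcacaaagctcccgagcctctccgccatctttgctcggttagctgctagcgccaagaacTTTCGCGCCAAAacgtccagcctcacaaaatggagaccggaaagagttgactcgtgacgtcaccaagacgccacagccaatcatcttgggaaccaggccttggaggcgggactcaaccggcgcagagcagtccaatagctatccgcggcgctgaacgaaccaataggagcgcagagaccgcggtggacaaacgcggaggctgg
Mcm6, chr1:128359656-128359955, minus strand: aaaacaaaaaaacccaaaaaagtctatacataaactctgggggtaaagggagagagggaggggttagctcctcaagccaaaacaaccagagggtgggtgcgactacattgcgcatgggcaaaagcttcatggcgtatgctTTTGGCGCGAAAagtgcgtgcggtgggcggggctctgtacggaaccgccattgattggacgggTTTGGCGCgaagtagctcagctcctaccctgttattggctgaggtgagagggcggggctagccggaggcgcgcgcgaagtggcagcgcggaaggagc
Mcm7, chr5:138171217-138171516, minus strand: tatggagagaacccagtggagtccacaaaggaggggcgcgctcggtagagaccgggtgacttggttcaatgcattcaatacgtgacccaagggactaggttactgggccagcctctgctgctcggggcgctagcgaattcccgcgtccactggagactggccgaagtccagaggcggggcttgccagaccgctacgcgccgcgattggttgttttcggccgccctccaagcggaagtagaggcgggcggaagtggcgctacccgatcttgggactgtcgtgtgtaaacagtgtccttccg
Mcm7, chr5:138171834-138172133, minus strand: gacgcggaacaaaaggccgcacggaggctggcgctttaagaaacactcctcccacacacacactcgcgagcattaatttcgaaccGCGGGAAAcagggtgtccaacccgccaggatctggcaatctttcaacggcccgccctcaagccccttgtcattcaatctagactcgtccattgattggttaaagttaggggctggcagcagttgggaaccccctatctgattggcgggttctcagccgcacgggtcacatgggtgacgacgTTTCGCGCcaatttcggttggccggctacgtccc
Mcm10, chr2:5012742-5013041, minus strand: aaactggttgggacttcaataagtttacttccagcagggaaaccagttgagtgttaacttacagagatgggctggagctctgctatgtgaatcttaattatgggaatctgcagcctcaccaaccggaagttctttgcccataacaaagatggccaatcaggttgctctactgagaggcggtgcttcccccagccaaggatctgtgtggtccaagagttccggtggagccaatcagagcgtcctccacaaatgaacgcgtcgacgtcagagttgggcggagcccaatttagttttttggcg
Pole2, chr12:69228141-69228440, minus strand: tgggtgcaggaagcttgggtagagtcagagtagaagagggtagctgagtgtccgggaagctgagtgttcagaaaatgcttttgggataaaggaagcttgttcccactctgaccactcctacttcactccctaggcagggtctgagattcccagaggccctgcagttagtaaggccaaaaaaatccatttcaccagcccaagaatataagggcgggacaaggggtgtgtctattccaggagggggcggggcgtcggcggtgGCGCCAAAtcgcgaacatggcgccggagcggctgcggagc
Rfc3, chr5:151651159-151651458, minus strand: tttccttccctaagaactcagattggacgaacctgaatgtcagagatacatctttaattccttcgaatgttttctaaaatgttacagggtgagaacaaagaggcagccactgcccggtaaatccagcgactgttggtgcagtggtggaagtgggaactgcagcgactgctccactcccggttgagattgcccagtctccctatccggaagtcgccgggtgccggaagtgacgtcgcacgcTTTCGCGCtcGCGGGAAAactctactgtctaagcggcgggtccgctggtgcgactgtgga
Chaf1b, chr16:93883651-93883950, plus strand: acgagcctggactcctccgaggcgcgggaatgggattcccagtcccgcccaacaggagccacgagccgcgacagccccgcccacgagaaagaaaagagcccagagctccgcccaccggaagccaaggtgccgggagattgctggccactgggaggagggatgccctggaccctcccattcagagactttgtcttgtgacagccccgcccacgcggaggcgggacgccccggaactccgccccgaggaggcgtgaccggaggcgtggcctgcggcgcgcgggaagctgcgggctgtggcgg

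In Mcm5 and Mcm6 a match on each strand overlapped to form a single run of capitals, and Mcm6 held a further match nearer the start. Over the list there were 19 matches in the 13 genes, of which 11 lay upstream of the start and 11 within 100 bases of it. Among the genes with a promoter in the table, 12 of the 25 that rose held the letters, and 1 of the 7 that did not rise, Orc1. The CCAAT letters were present on either strand in 21 of the 40 promoters (52.5%), against 37.4% of all promoters and 37.3% of those of other tested genes, and all 6 MCM genes with a promoter held them. The core letters of NFAT sites, TGGAAA, were present on either strand in 5 of the 40 (12.5%), against 21.4% of all promoters and 16.4% of those of other tested genes. A match of letters is a description of the sequence, and binding was not measured here.

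**Figure D3:**
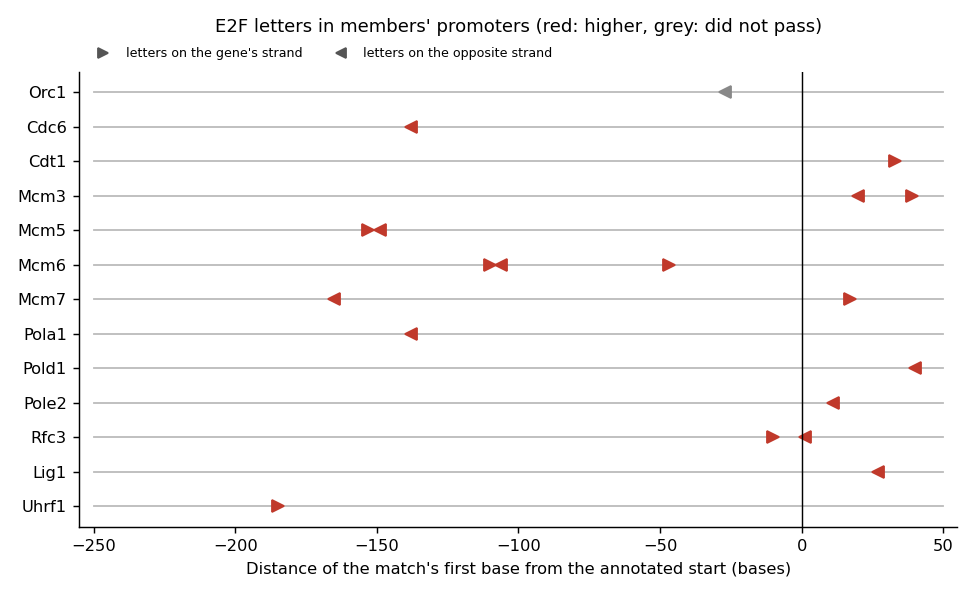
Position of the first base of each E2F letter match in the promoters of the 13 replication genes that held one, as the distance in bases from the annotated start, with right-pointing marks for the gene's strand and left-pointing marks for the opposite strand. Red genes rose and the grey gene, Orc1, did not pass, and 11 of the 19 matches lie within 100 bases of the start.

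The genes that fire origins were higher as well. All 4 measured genes rose. Gins1, a subunit of the GINS complex that bridges helicase and polymerase, had signals of 788.8 and 610.9 on the NFATc1-deficient arrays, against 311.8 and 233.2 on the wild-type arrays, with means of 700 ± 126 in deficient and 273 ± 55.6 in wild-type cultures and a log2 change of 1.29 (SE 0.19, adjusted p = 0.00201). Cdc7, the kinase that phosphorylates the MCM ring, had 307.5 and 310.4 on the NFATc1-deficient arrays, against 175.9 and 137.7 on the wild-type arrays (0.89, SE 0.19, adjusted p = 0.0109). Dbf4, which activates Cdc7, had 1228.4 and 1009.1 on the NFATc1-deficient arrays, against 651.6 and 610.3 on the wild-type arrays (0.80, SE 0.13, adjusted p = 0.00400). Kinase and activator thus both stood above the wild-type range on each array. Cdc45, a part of the moving helicase, changed by 0.81 (adjusted p = 0.0204). The calls of Cdc7 and Cdc45 were lost without NFATc1-deficient replicate 1, and that of Cdc45 also without wild-type replicate 2, without the filter and without the intensity trend. Their adjusted p ran between 0.000374 and 0.0571 for Cdc7 and between 0.000578 and 0.115 for Cdc45. A dimmer Cdc7 probe set, at 0.57, did not pass.

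Polymerase and primase genes were higher in part. Of 8 genes 5 rose and 3 did not pass. Pole, the catalytic subunit of polymerase epsilon, had signals of 349.2 and 288.8 on the NFATc1-deficient arrays, against 85.8 and 149.1 on the wild-type arrays, a log2 change of 1.31 (SE 0.25, adjusted p = 0.00683). Pole2, its second subunit, had 1267.8 and 1170 on the NFATc1-deficient arrays, against 510.7 and 470.8 on the wild-type arrays, with means of 1219 ± 69.2 in deficient and 491 ± 28.2 in wild-type cultures and a change of 1.27 (SE 0.12, adjusted p = 0.000396). Replicates of Pole2 were close together and those of Pole were spread, above all in the wild-type cultures. Prim1, the catalytic primase subunit, changed by 1.12 (adjusted p = 0.00340) and by 1.35 at its other probe set, and Pola1, the catalytic subunit of polymerase alpha, by 0.90 (adjusted p = 0.00683).

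The 3 genes that did not pass were Pola2, Pold2 and Prim2. Pola2, the B subunit of polymerase alpha, had signals of 433.1 and 531.9 on the NFATc1-deficient arrays, against 351.7 and 420.4 on the wild-type arrays (0.30, SE 0.16, adjusted p = 0.224), and with 1 array left out its change lay between 0.16 and 0.44. Pold2, a subunit of polymerase delta, changed by 0.39 (adjusted p = 0.179), by 0.12 without NFATc1-deficient replicate 1 (adjusted p = 0.770) and by 0.66 without NFATc1-deficient replicate 2 (adjusted p = 0.0303, the ends of the range over the alternatives). Prim2, the large primase subunit, had 1086.8 and 642.7 on the NFATc1-deficient arrays, against 486.4 and 558.8 on the wild-type arrays, a change of 0.66 (adjusted p = 0.0609, and from 0.00250 to 0.344 over the alternatives). That change was 0.29 without NFATc1-deficient replicate 1 and 1.03 without NFATc1-deficient replicate 2. A second Prim2 probe set did rise, by 0.72 (adjusted p = 0.00984). Pold1, the catalytic subunit of polymerase delta, rose by 0.62 (adjusted p = 0.0193) at its brighter probe set and by 1.41 at the other, and the call at the brighter one was lost when any array other than wild-type replicate 1 was left out and without the intensity trend (adjusted p from 0.00116 to 0.0833).

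All 6 genes of the clamp, its loader and the single-strand binding protein rose. Rfc3, a subunit of the clamp loader, had signals of 795.4 and 726.3 on the NFATc1-deficient arrays, against 273.9 and 347.2 on the wild-type arrays, with means of 761 ± 48.9 in deficient and 311 ± 51.8 in wild-type cultures and a log2 change of 1.24 (SE 0.16, adjusted p = 0.00113). Rpa2, a subunit of the complex that coats single-stranded DNA, had 796.3 and 679.6 on the NFATc1-deficient arrays, against 326.1 and 308.9 on the wild-type arrays (1.16, SE 0.14, adjusted p = 0.00108). Pcna, the sliding clamp, had the smallest change of the group, with 8693 and 8432.1 on the NFATc1-deficient arrays, against 6018.5 and 6010.9 on the wild-type arrays (0.51, SE 0.10, adjusted p = 0.00789). Its replicates lay close together, so a small change stood clear of their spread. The Pcna call was nevertheless lost with median scaling, without the intensity trend and without either NFATc1-deficient array, with an adjusted p between 0.00133 and 0.144. Rfc4 changed by 1.04, Rfc5 by 0.87 and Rpa1 by 0.77, and the second probe sets of Rfc3, Rfc4, Rpa1 and Rpa2 rose too.

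Genes of the lagging strand and of new chromatin held both exceptions to the pattern. Uhrf1, which brings the maintenance DNA methyltransferase to newly copied DNA, had signals of 1175.4 and 1162.3 on the NFATc1-deficient arrays, against 576 and 495.2 on the wild-type arrays, with means of 1169 ± 9.26 in deficient and 536 ± 57.1 in wild-type cultures and a log2 change of 1.10 (SE 0.13, adjusted p = 0.000768). A dimmer Uhrf1 probe set, at 0.59, did not pass. Lig1, the ligase that joins Okazaki fragments, had 1085 and 1015.1 on the NFATc1-deficient arrays, against 605.5 and 591.1 on the wild-type arrays (0.79, SE 0.12, adjusted p = 0.00240). Both genes thus followed the helicase and polymerase genes.

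Chaf1b, singled out after its values were seen, was the only one of the 38 to fall. It encodes the middle subunit of the chaperone that places histones on copied DNA. Its signals were 486.8 and 429.3 on the NFATc1-deficient arrays, against 761.3 and 804.5 on the wild-type arrays, with means of 458 ± 40.7 in deficient and 783 ± 30.5 in wild-type cultures and a log2 change of -0.75 (SE 0.13, adjusted p = 0.00502). This fall passed under each alternative, with changes from -0.83 to -0.64 and an adjusted p of at most 0.0285. A single probe set reported on Chaf1b, so no second reading of it was to be had, and its partner subunit Chaf1a was not analysed here.

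Fen1, the nuclease that trims Okazaki fragments, turned on 1 array and 1 probe set. Its brighter probe set had signals of 2143.8 and 1880.9 on the NFATc1-deficient arrays, against 5347.8 and 1265.5 on the wild-type arrays (-0.37, SE 0.51, adjusted p = 0.648). The name of that probe set ends in x_at, the same kind as the brighter one of Mcm4. Without wild-type replicate 1 the brighter probe set had a change of 0.66, and without wild-type replicate 2 it had -1.40. Each of these fits leaves 1 wild-type array, so the spread of the wild-type cultures cannot be measured in it. The dimmer Fen1 probe set had 1271 and 1262.3 on the NFATc1-deficient arrays, against 804.6 and 836.3 on the wild-type arrays, and rose by 0.61 (adjusted p = 0.00539).

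The regulators of S phase entry gave a large rise in 1 of the 2 cyclin E genes. Ccne2 had signals of 1040 and 849.5 on the NFATc1-deficient arrays, against 355 and 286.9 on the wild-type arrays, with means of 945 ± 135 in deficient and 321 ± 48.2 in wild-type cultures and a log2 change of 1.49 (SE 0.16, adjusted p = 0.000580). Its difference was 1.49 between the arrays numbered 1 and 1.49 between those numbered 2, which come from different mice. Ccne1, its paralog, had 166.8 and 203.3 on the NFATc1-deficient arrays, against 133.7 and 104.6 on the wild-type arrays, a change of 0.55 that did not pass (SE 0.22, adjusted p = 0.113). A test of the difference between the 2 paralogs was not made. E2f1, the transcription factor that switches on many of these genes, had 321.9 and 341.6 on the NFATc1-deficient arrays, against 203.7 and 167.1 on the wild-type arrays (0.77, SE 0.18, adjusted p = 0.0157). Its other probe set had 116.4 and 152.1 on the NFATc1-deficient arrays, against 133.1 and 138.8 on the wild-type arrays (-0.02, adjusted p = 0.955), so the groups overlapped there. The E2f1 call was lost without either NFATc1-deficient array and with the mean of its probe sets, with an adjusted p between 0.00199 and 0.165.

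Of the 18 genes with several tested probe sets, the calls of these probe sets differed for 9 and their signs for 2, E2f1 and Fen1. For 24 of the 38 genes every tested probe set rose. Probe sets of 1 gene share its RNA and are not replicates.

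When arrays of the same number were set against each other, 1 pool of each genotype at a time, the median difference was 0.91 for number 1 and 0.93 for number 2, against -0.03 and 0.09 over all tested genes. The difference was above 0 for 36 of 38 genes for number 1 and for 37 for number 2. Over all 7798 tested genes it was above 0 for 3701 and 4500. The pools are of different mice, so these are descriptions and not paired changes. The replicate 1 arrays had the higher signal of their genotype for 30 of 38 genes in the deficient and for 28 in the wild-type cultures, by a median of 0.17 and 0.13 on the log2 scale. The matching count over all tested genes was not made. The median absolute difference between replicates was 0.19 in deficient and 0.20 in wild-type cultures.

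**Figure D4:**
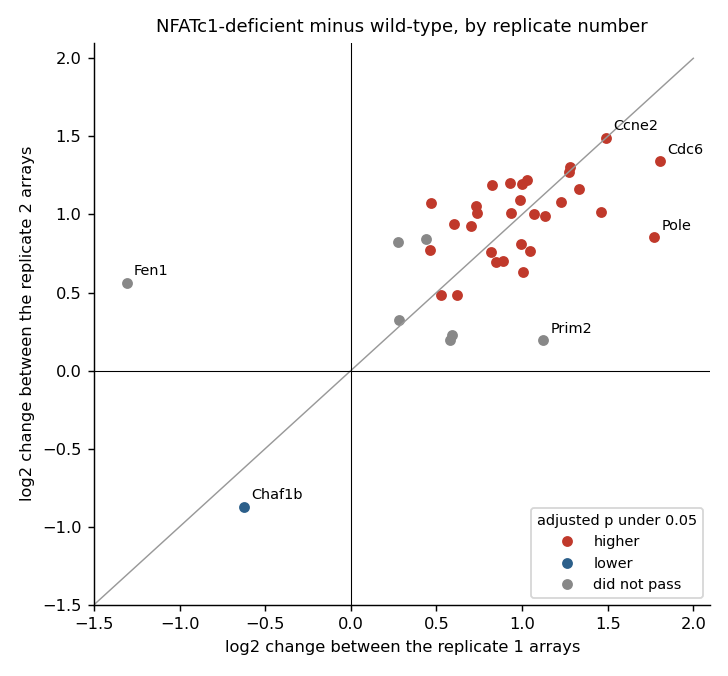
Log2 change (NFATc1-deficient minus wild-type) between the replicate 1 pools of the 2 genotypes (horizontal) and between their replicate 2 pools (vertical) for the 38 replication genes, with the grey line marking equal changes. All points but those of Fen1 and Chaf1b lie above 0 on both axes, with medians of 0.91 and 0.93, and Prim2 and Pole lie toward the replicate 1 axis.

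Markers of other cells moved unevenly beside these genes. For comparison, 12.9% of all tested genes rose and 11.9% fell. Of 10 granulocyte and promyelocyte markers 4 rose and 6 did not pass, with summed signals of 16926 and 8140 on the NFATc1-deficient arrays, against 6300 and 6505 on the wild-type arrays. The median difference of these 10 was 1.45 between the arrays numbered 1 and 0.22 between those numbered 2. Without NFATc1-deficient replicate 1, where these markers were highest, the median change was 0.83 over the replication genes and 0.05 over all tested genes. Of 5 tested markers of progenitors and mast cells 0 passed in limma (2 had an unadjusted p under 0.05), with summed signals of all 7 measured markers of 1258 and 1019 on the NFATc1-deficient arrays, against 955 and 668 on the wild-type arrays. Of 7 macrophage markers 1 rose and 2 fell, with sums of 29403 and 28725 on the NFATc1-deficient arrays, against 33705 and 38474 on the wild-type arrays. Sums over the 4 lymphoid markers were 598 and 548 on the NFATc1-deficient arrays against 482 and 308 on the wild-type arrays, and 1 of 2 tested rose. The 3 erythroid markers summed to 133 and 199 on the NFATc1-deficient arrays, against 144 and 104 on the wild-type arrays. The 4 stromal markers summed to 321 and 255 on the NFATc1-deficient arrays, against 306 and 236 on the wild-type arrays. Of erythroid and stromal markers 0 of the 3 tested passed in limma, also at an unadjusted p under 0.05. The part of other cells in the changes of the replication genes was not tested.

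Most tested genes of the pathway outside the 38 were higher as well. These lists, like the 38, were chosen with earlier results of these data known, so their counts are descriptions. Of 30 tested genes from a list of other replication factors 22 rose, 0 fell and 8 did not pass, with a median change of 0.62. The shares over all tested genes were 12.9% that rose and 11.9% that fell, with a median of 0.03. The largest changes were in Exo1, an exonuclease that trims DNA ends (1.25), Dna2, a nuclease of the lagging strand (1.22), Tipin, a part of the fork protection complex (1.19), and Dtl, the adaptor that has Cdt1 destroyed in S phase (1.16). Rfc1, the large subunit of the clamp loader, rose by 1.00, whereas Rfc2 had 935.5 and 985.3 on the NFATc1-deficient arrays, against 1242.7 and 1173.9 on the wild-type arrays (-0.32, adjusted p = 0.0680). Rfc1, Rfc2, the 3 further origin recognition subunits and Dnmt1 were named after their values were seen. Orc5 rose by 0.57 (adjusted p = 0.0186), while Orc3 changed by -0.01 and Orc4 by 0.12, and neither of these passed. At the brightest probe set the DNA methyltransferase Dnmt1 changed by 0.10 (adjusted p = 0.708), while its other probe set rose by 0.83.

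In the E2F and RB family 3 of 9 tested genes rose and 6 did not pass, with a median of 0.29. Among all tested genes 12.9% rose, and the median was 0.03. Tfdp1, the DNA-binding partner of E2F proteins, rose by 0.84, the RB relative Rbl1 by 0.78 and the late-acting repressor E2f8 by 0.59. Rb1 changed by 0.36 (adjusted p = 0.254). Over both lists together 25 of 39 genes rose and 0 fell by limma, and at an unadjusted p under 0.05 there were 26 higher and 2 lower, Rfc2 and Pold4. The 25 were 14 without the intensity trend and 15 without NFATc1-deficient replicate 1.

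**Figure D5:**
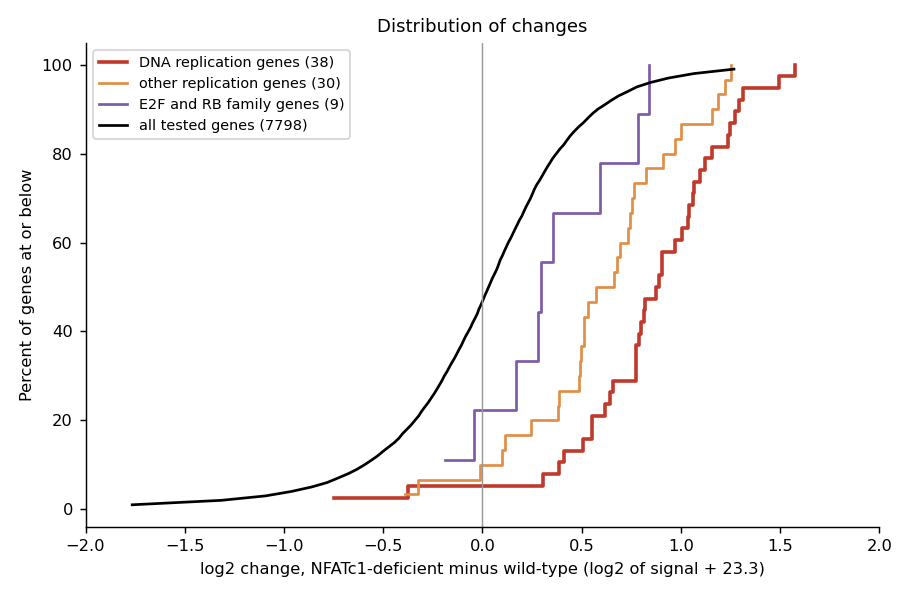
Percent of genes (vertical axis) at or below each log2 change (horizontal axis, NFATc1-deficient minus wild-type, log2 of signal + 23.3) for the 38 replication genes, 30 other replication genes, 9 E2F and RB family genes and all 7798 tested genes (drawn from percentile 1 to 99). The medians are 0.88, 0.62, 0.29 and 0.03, and 86.8% of the replication genes lie above 0.5, against 13.3% of all tested genes.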

How the data were processed

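The authors deposited linear intensities per probe set from Affymetrix arrays, computed with MAS5 per the submitters' processing notes. Its version is not given in the sources used here. Trimmed by 2% at each end, array means lay between 500.186 and 500.211, the deposited scaling. The number of arrays limits the precision. Names came from the platform's annotation, in which 20393 of 22690 had 1 symbol, 691 several and 1606 none; RefSeq matched 20364 by Entrez number with 0 symbols changed.

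Signals were used as log2(signal + 23.3), the constant being the 25th percentile of all values, which understates changes of dim genes. After 64 control probe sets were left out, the 13577 whose mean exceeded the 40th percentile (62) were fitted with limma 3.58.1 in R 4.3.3 (lmFit, eBayes with an intensity trend, no covariate, all 4 arrays). The brightest tested probe set stood for a gene; signals were never compared between genes. Genes given in full were, in each role, the 2 with the largest and the 1 with the smallest absolute change; Orc1, Orc6, Cdt1, Prim2 and Chaf1b were added after their values were seen; up to 4 of each further list were named, and further ones where the text says so. The members and lists were chosen with earlier results of these data known. The fit was also run on simulated data with independent noise. The outcome is not reported here and lends the calls no weight. A planned search of the members' proteins was not run. Alternatives were other scaling, constants, filters, no trend, a replicate block, the mean of probe sets, and leaving out each array.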

Additional observations from a re-analysis of the deposited data

How the results depend on the processing

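The count of replication genes that rose (30) was between 26 and 32 over the settings that kept all arrays and between 24 and 31 with 1 array left out, and the count that fell (1) was 1 to 2. The filter at the 60th percentile left 34 of the genes, 28 of which rose. Over all tested genes, the 1005 that rose were 677 without a filter, 568 without the intensity trend and 494 without NFATc1-deficient replicate 1, where 29, 26 and 24 replication genes rose; the 931 that fell were 646 without the trend and 576 without that array. The median change (0.88) was 0.87 with quantile normalization, 0.90 and 0.75 with the constant at the 10th and 50th percentile, 0.83 when probe sets of a gene were averaged, and 0.79 to 1.00 with 1 array left out. Of the other replication and E2F genes, 25 rose, 14 did without the intensity trend and 15 to 25 did with 1 array left out. The count of those that fell (0) was 2 with quantile normalization, 1 with the filter at the 60th percentile, 2 with the mean of all probe sets and 1 with the replicate block, and 0 with 1 array left out. Fen1 turned positive with the mean of its probe sets (0.12) and without wild-type replicate 1 (0.66), and was -1.40 without wild-type replicate 2. Over the single genes, 324 of 338 comparisons with another setting and 134 of 152 with 1 array left out kept their direction and their side of the threshold. The cause of these moves was not tested. Replicate numbers are shared between genotypes, and deviations of same-numbered arrays correlated at 0.13 over 13577 probe sets, with 2 pairs. The labels tie same-numbered arrays by the number and the size of the pool alone, so the numbers were not taken as a pairing. With the replicate block 32 replication genes rose. Detection calls were not used here, so signals near the constant, as in dim second probe sets, have unknown standing against background.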

Other observations

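Enzymes that supply deoxynucleotides, the substrates of replication, rose with the replication genes. This list and that of mitotic genes below were also chosen with earlier results of these data known. All 5 tested genes of the deoxynucleotide list rose, with a median of 0.94, against 12.9% and a median of 0.03 over all tested genes. Thymidine kinase Tk1 had signals of 1370.2 and 1208.9 on the NFATc1-deficient arrays, against 491.2 and 439.8 on the wild-type arrays, a log2 change of 1.42 (SE 0.13, adjusted p = 0.000283). Deoxycytidine kinase Dck changed by 1.14, the ribonucleotide reductase subunit Rrm2 by 0.94 and the dUTPase Dut by 0.92. The Rrm2 value came from a probe set of the x_at kind. Its other probe sets rose by 0.51 and changed by 0.43 without passing (adjusted p = 0.0544 in limma). A second Dck probe set rose by 1.04, and another changed by 0.45 without passing. The dimmer Dut probe set changed by 0.79 and did not pass.

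Mitotic and proliferation genes were also higher. Of 11 tested genes 9 rose and 2 did not pass, with a median of 0.76, against 12.9% that rose and a median of 0.03 over all tested genes. The checkpoint kinase Bub1 changed by 1.28, the proliferation marker Mki67 by 1.01, the kinesin Kif11 by 1.00 and the anaphase activator Cdc20 by 0.92. The Cdc20 value came from a probe set of the x_at kind. Its other probe sets rose by 0.53 and, at a dimmer one of the x_at kind, by 1.56. Mki67 had signals of 2421 and 2298.4 on the NFATc1-deficient arrays, against 1192.9 and 1131.3 on the wild-type arrays.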
